A study of Mus musculus with 8 samples.

Results

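Oligodendrocyte precursor-like cells were picked out of the dissociated tumours of Patched 1 deficient mice, which develop medulloblastoma with an active Hedgehog pathway. A cell was taken when it carried at least 1 UMI (unique molecular identifier, the count of 1 captured RNA molecule) in at least 3 of 9 genes, Pdgfra, Cspg4, Sox10, Lhfpl3, C1ql1, Neu4, Tnr, Gpr17 and Olig1, and in at most 3 of 6 astrocyte genes, Aqp4, Gja1, Slc1a2, Aldoc, Ntsr2 and Mlc1. Cells needed at least 500 detected genes and at most 10% of UMIs from mitochondrial genes. The rule took 1844 of 16933 passing cells, 1223 of 7839 in the relapsed library and 621 of 9094 in the primary library. Because these genes chose the cells, their levels are given as a description and without a test, against the other cells and between the libraries.

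The study holds 2 droplet single-cell libraries, of 1 relapsed tumour sample labelled 3 weeks and of 1 primary tumour sample, and 6 bulk RNA libraries of sorted astrocytes, 3 labelled stroma B and 3 labelled stroma A. All 8 samples are labelled Patched 1 deficient. The labels used here give no driver of the deletion, age, sex, strain or treatment, do not say whether animals were pooled, and do not tie a stroma to the relapsed or the primary tumour. One description of the relapsed library names a primary tumour, and the title and source were followed. With 1 library for each tumour, no difference between relapsed and primary cells has a replicate check, no p-value is given for it, and every interval covers counting error only.

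Oligodendrocyte precursors are dividing glial cells that arise from neural progenitors under the transcription factors Olig1, Olig2 and Sox10, spread through the brain in response to platelet-derived growth factor at the receptor Pdgfra, and carry the proteoglycan Cspg4 (NG2). On leaving the cycle they lose Pdgfra, pass through a committed state with Gpr17, Bmp4 and Enpp6, and then make myelin proteins such as Mbp. In the cerebellum they lie beside granule neuron progenitors, the lineage of Hedgehog-driven medulloblastoma. On the mm10 build with GENCODE vM21 genes, Pdgfra lies on chromosome 5 at 75152292 to 75198215 (plus strand), Olig1 on chromosome 16 at 91269772 to 91271933 (plus strand), Sox10 on chromosome 15 at 79154908 to 79165240 (minus strand) and Cspg4 on chromosome 9 at 56865033 to 56899870 (plus strand).

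The relapsed library held 69403567 UMIs in 7852 barcodes and the primary library 56332247 in 9164. Over all barcodes the median was 7230 UMIs in the relapsed and 5404 in the primary library. The libraries shared 93 barcode sequences, and 12 relapsed and 5 primary cells chosen by the rule carried such a barcode. The doublet caller Scrublet marked 0 cells in each library at its own threshold, which is not a working call, so the top 6% of scores (470 relapsed and 546 primary cells) were left out as an alternative. The labels used here do not give the deleted part of Ptch1, so its level cannot check them.

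The rule mixed cells of 2 kinds. Of the 1844 cells, 1568 had 3 or 4 of the 9 genes, here the lower range, and 276 had 5 to 9, here the upper range. The cut at 5 was chosen after these values were seen. It follows a step in genes that the rule did not use: relapsed cells with 3, 4 and 5 of the 9 genes had a median of 1, 2 and 19 of 30 other precursor genes, and primary cells 1, 2 and 16. The median number of 12 granule lineage markers with a UMI ran the other way, 7, 8 and 2 in relapsed and 6, 6 and 1 in primary cells. Just below the cut, at 4 genes, lay 124 relapsed and 33 primary cells, and just above it, at 5, lay 9 relapsed and 23 primary cells, so in the relapsed library the cells just below outnumbered the whole upper range.

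**Figure D1:**
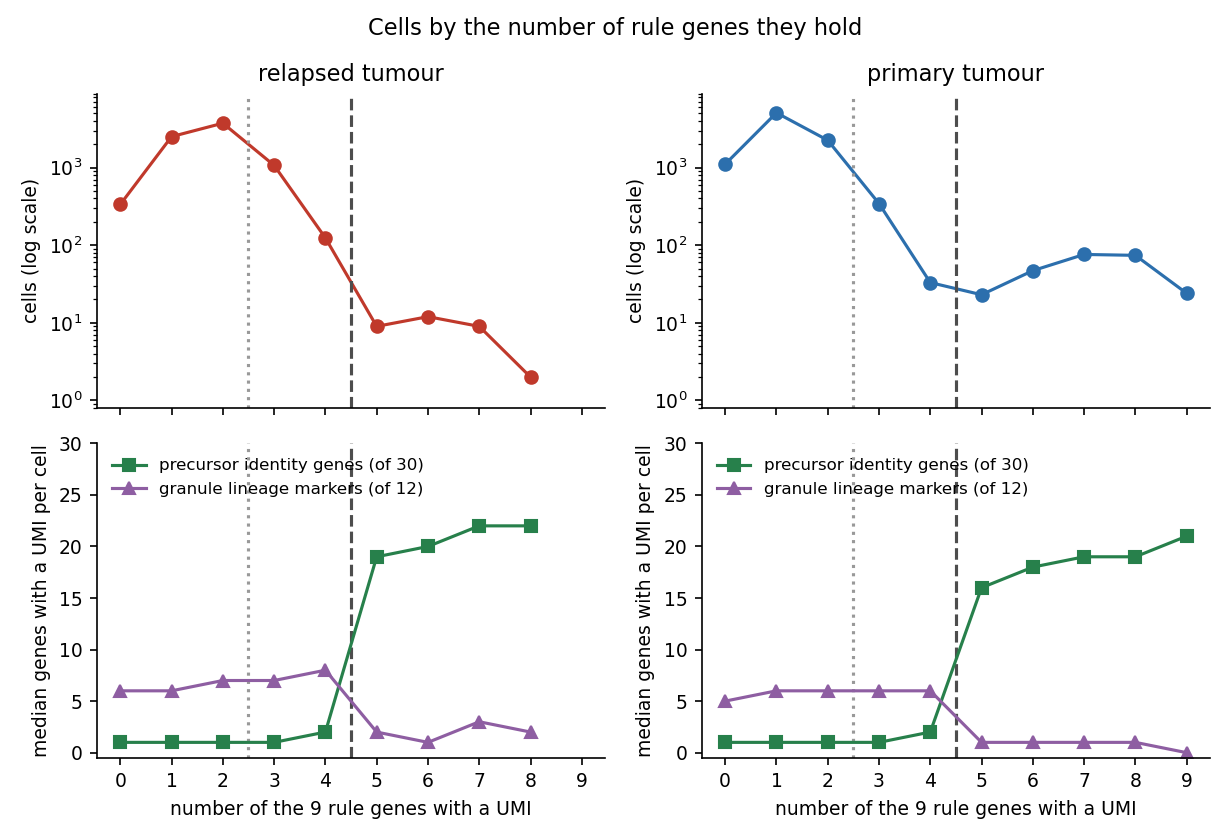
Number of cells (top, log axis) and median number of the 30 other precursor genes (green squares) and of the 12 granule lineage markers (purple triangles) with a UMI per cell (bottom), by number of the 9 rule genes with a UMI, in the relapsed (left) and the primary library (right); the dotted line marks the rule and the dashed line the cut between lower and upper range. The precursor genes step up between 4 and 5 rule genes, to 19 in relapsed and 16 in primary cells, where the granule markers come down to 2 and 1.

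At the edge of the rule itself the change was smaller. Cells just inside, with 3 of the 9 genes, had a median of 1 of the 30 precursor genes and cells just outside, with 2, also had 1, in both libraries. Olig2, a precursor gene outside the rule, had a UMI in 24.2% of relapsed cells with 3 genes and 11.7% of those with 2, and in 10.8% and 4.85% of primary cells, while the median UMIs were 10706 and 7661 in relapsed and 8182 and 6521 in primary cells. There were 1067 relapsed and 344 primary cells with exactly 3 genes. Among these relapsed cells 617 (57.8%) carried Pdgfra, C1ql1 and Olig1 and 374 (35.1%) Pdgfra, Lhfpl3 and C1ql1, while among the primary cells 163 (47.4%) and 76 (22.1%) did. These genes were common outside the members too: C1ql1, a secreted synaptic protein of the complement family, had a UMI in 90.5% of relapsed and 82.7% of primary other cells, and Pdgfra in 49.2% and 18.3%.

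Lower-range cells went against the name. In the relapsed library 97.7% of them carried at least 4 of the 12 granule markers, against 94.2% of other relapsed cells, and in the primary library 95.8%, against 86.7% of other primary cells. Zic1, a transcription factor of the granule lineage, had a UMI in 94.5% of relapsed and 92.6% of primary lower-range cells. The 30 precursor genes had a UMI in a median of 3.31% of relapsed and 2.92% of primary lower-range cells, against 2.23% of other relapsed and 2.09% of other primary cells. By 2-fold or more, 14 of 11443 measured genes (0.122%) were higher in relapsed lower-range cells than in other relapsed cells, and 17 of 8469 (0.201%) in the primary library. They are therefore named here only by the rule.

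Upper-range cells carried precursor genes that the rule did not use. The 30 genes had a UMI in a median of 70.3% of relapsed and 60.6% of primary upper-range cells. The 4 defining markers Pdgfra, Olig1, Sox10 and Cspg4 are all rule genes, so the cut largely sets their shares: at least 3 of them were present in 30 of 32 relapsed (93.8%) and 196 of 244 primary upper-range cells (80.3%), and in 9 relapsed (0.756%) and 2 primary (0.531%) lower-range cells. Sox10, which drives the oligodendrocyte lineage, had a UMI in 78.1% of relapsed and 78.3% of primary upper-range cells, against 0 of the other relapsed cells and 0.354% of the other primary cells. Olig1 was present in 100% of upper-range cells of both libraries, against 7.35% of other relapsed and 8.01% of other primary cells. Doublet scores put 3 relapsed (9.38%) and 39 primary (16%) of them in the top 6%, and 6 relapsed (18.8%) and 39 primary (16%) carried at least 4 granule markers.

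**Figure D2:**
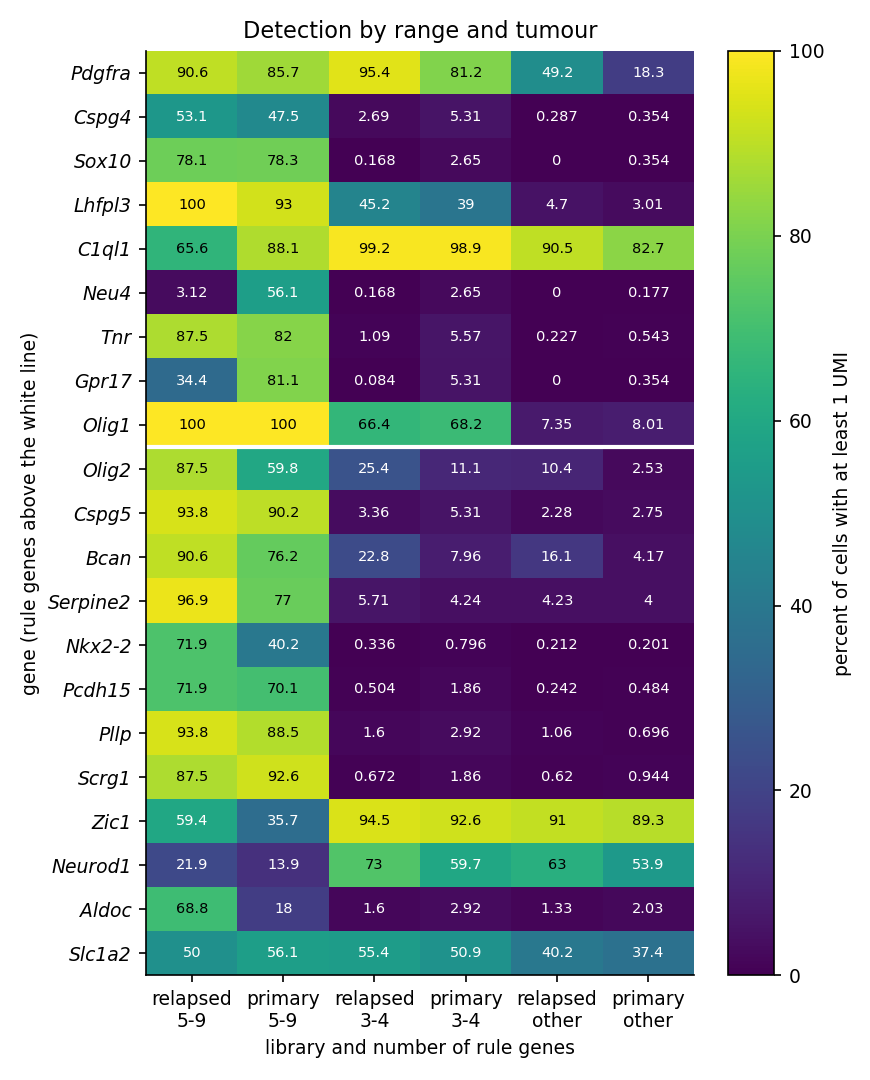
Percent of cells with at least 1 UMI, as colour and as a printed value, of the 9 rule genes (above the white line) and of precursor, granule and astrocyte genes, in upper-range cells (5-9), lower-range cells (3-4) and all other cells of the relapsed and the primary library. Sox10 reaches 78.1% in relapsed and 78.3% in primary upper-range cells and 0.168% and 2.65% in lower-range cells, while Zic1 reaches 94.5% and 92.6% in lower-range cells.

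The share of chosen cells was higher in the relapsed library under the rule as given and lower in it once the mixture was split. Chosen cells made up 15.6% of relapsed cells (Clopper-Pearson 95% interval 14.8 to 16.4) and 6.83% of primary cells (6.32 to 7.37). Upper-range cells made up 0.408% of relapsed cells (0.279 to 0.576) and 2.68% of primary cells (2.36 to 3.04), so they were 2.62% of the relapsed and 39.3% of the primary cells that the rule took. Depth moved the same order: with each cell thinned to 1000 UMIs the rule took 21 relapsed (0.268%) and 196 primary cells (2.16%), and chosen relapsed cells had a median of 11054 UMIs against 6435 in chosen primary cells. Thinned to 2000 UMIs, cells with at least 5 genes were 3 of the relapsed cells (0.0383%) and 183 of the primary cells (2.01%).

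The same split decided what the chosen cells showed against other cells. Over all chosen cells, 59 of 11529 measured genes (0.512%) were at least 2-fold higher than in other relapsed cells, and 655 of 9774 (6.70%) than in other primary cells. In the upper range these counts were 439 of 2928 (15%) in the relapsed and 1305 of 6484 (20.1%) in the primary library, with 266 (9.08%) and 520 (8.02%) lower. Over all chosen cells the genes named by the rule for a high ratio in both libraries were led by Olig2, and held mitotic genes (Plk1, Cenpf, Prc1, Cdca2) beside Etv5, Ccnd1, Rgma and others. None of the 26 genes of the G2/M list was at least 2-fold higher in chosen cells of either library, with median log2 ratios of 0.63 in the relapsed and 0.19 in the primary library. The upper range is described from here on.

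The 20 genes outside the rule with the highest ratio in both libraries were Gal3st1, Csmd3, Fam89a, Bricd5, Nkx2-2, Pcdh15, 3110035E14Rik, Lypd1, Pllp, Car8, Kcnd2, Ptpre, Meox1, Vwc2, B3gat2, Prkg2, Lims2, Wnt7b, Ppp1r16b and Scrg1. Nkx2-2, Pcdh15, Lims2 and Scrg1 are among the 30 precursor genes. Each of the 20 had a UMI in 21.9 to 93.8% of relapsed and 20.1 to 92.6% of primary upper-range cells, and in at most 1.06% of other relapsed and 0.944% of other primary cells. Lower-range cells stayed near the other cells, at no more than 1.60% in the relapsed and 2.92% in the primary library. Pllp, a membrane protein of myelin-forming cells, stood at 369 CPM (counts per 1000000 UMIs summed over the group) in relapsed and 607 CPM in primary upper-range cells, against 2.00 and 1.76 CPM in the other cells. Gal3st1 makes sulfatide, a myelin lipid, and Nkx2-2 is a transcription factor of the oligodendrocyte lineage.

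Markers of other cell types in the upper range differed by type. In relapsed upper-range cells 8 of 10 microglia and macrophage markers were at 0 (C1qa, C1qb, Csf1r, Cx3cr1, P2ry12, Tyrobp, Trem2 and Ctss) and the list summed to 26.2 CPM, against 206 CPM in other relapsed cells. In primary upper-range cells Csf1r and P2ry12 were at 0 and the list summed to 68.2 CPM, against 1146 CPM in other primary cells. All 5 fibroblast markers were at 0 in both libraries, and 4 of 5 endothelial markers were at 0 in each. Ependymal markers summed to 34.9 CPM in relapsed and 0.852 CPM in primary upper-range cells, against 6.78 and 3.61 CPM in other cells, with Ccdc153 and Tmem212 at 0 in both libraries. Astrocyte markers summed to 532 CPM in relapsed and 446 CPM in primary upper-range cells, against 475 and 383 CPM in other cells, with Aqp4, Gja1 and Mlc1 at 0 in the relapsed cells and Aldh1l1 at 0 in the primary cells. Granule markers summed to 548 CPM in relapsed and 856 CPM in primary upper-range cells, against 3268 and 2777 CPM in other cells. Aldoc, an enzyme of sugar breakdown that marks astrocytes and is among the 6 genes of the rule, stood at 131 CPM in relapsed and 49.4 CPM in primary upper-range cells. The part of doublets and free RNA in these remaining levels was not tested.

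Genes of the sex chromosomes, which took no part in the rule, differed between the libraries and, in the relapsed one, between cell types. The female-specific RNA Xist had a UMI in 0 of 32 relapsed upper-range cells and in 243 of 244 primary ones (99.6%, interval 97.7 to 100). By a floor of 3 counts, 0 of 32 allows a share of up to 9.38%. At least 1 of 4 Y-linked genes (Eif2s3y, Ddx3y, Kdm5d, Uty) had a UMI in 28 of 32 relapsed (87.5%, 71.0 to 96.5) and 0 of 244 primary upper-range cells, which allows a share of up to 1.23%. Upper-range cells thus carried the pattern of most cells of their own library, where 72.1% of other relapsed cells had a Y-linked UMI and 79.2% of other primary cells had Xist. Microglia of the relapsed library did not: 27 of 31 had Xist (87.1%, 70.2 to 96.4) and 5 a Y-linked UMI (16.1%, 5.45 to 33.7), at a median of 11208 UMIs against 14384 in the upper-range cells. The relapsed library therefore held cells of 2 sex-chromosome patterns, and the labels used here do not say from which animals they came.

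Prm1, the protamine that packs sperm DNA, was present in each of the 32 relapsed upper-range cells (interval 89.1 to 100%) at 3797 CPM and a median of 45 UMIs, and in 0 of the 9094 primary cells, which allows a share of up to 0.033%. In the relapsed library 16.2% of other cells and 30.0% of lower-range cells had a Prm1 UMI. At 10 or more UMIs the shares were 90.6% of upper-range cells, 2.69% of lower-range cells, 1.51% of other cells and 0 of 31 microglia. Relapsed cells with at least 4 of the 6 astrocyte genes were the other group with high Prm1, at a median of 154 UMIs, 46 of 48 cells having 10 or more (95.8%). Of all 161 relapsed cells with 10 or more Prm1 UMIs, 29 were upper-range cells, 46 held at least 4 astrocyte genes and 86 were neither. With each cell thinned to 2000 UMIs, Prm1 had a UMI in 96.9% of upper-range, 9.74% of lower-range and 6.88% of other relapsed cells and in 3.23% of relapsed microglia. Prm1 lies on chromosome 16 at 10796326 to 10805839 (minus strand). The counts do not show which part of the annotated gene the reads cover, so whether they come from Prm1 itself was not tested.

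Every rule gene had a lower level in relapsed than in primary upper-range cells, which the choice of cells sets in part. A deeper cell reaches 5 of the 9 genes at a lower level per UMI, and relapsed upper-range cells had a median of 14384 UMIs, against 3740 in primary ones. How far this bears on other genes of these cells was not tested. Pdgfra, the platelet-derived growth factor receptor, had 121 UMIs (264 CPM) in 32 relapsed cells and 821 UMIs (700 CPM) in 244 primary cells, a log2 ratio of -1.41 (interval -1.69 to -1.13). In the other cells Pdgfra ran the other way, at 115 CPM in relapsed and 39.0 CPM in primary cells (log2 ratio 1.57), so its level in the upper range was 2.29 times that of other relapsed cells and 17.9 times that of other primary cells. Across 5987 genes measured (at least 30 UMIs in either library), 352 (5.88%) were at least 2-fold higher and 1151 (19.2%) at least 2-fold lower in relapsed upper-range cells, with a median log2 ratio of -0.20. The summed depth favours lower calls, since 30 UMIs are a higher level in the smaller relapsed sum. In all other cells the shares were 9.23% higher and 8.46% lower, and over all cells chosen by the rule 5.22% (591 of 11315) and 12.2% (1379).

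Of the 9 rule genes, 7 were at least 2-fold lower in relapsed upper-range cells and none higher. Olig1 was nearest to even, with 699 UMIs (1525 CPM) in relapsed and 3029 UMIs (2581 CPM) in primary cells, a log2 ratio of -0.76. Gpr17, the receptor of the stage that commits to differentiation, had 14 UMIs (30.5 CPM) in relapsed and 738 UMIs (629 CPM) in primary cells, a log2 ratio of -4.36 (-5.24 to -3.61). Neu4, a sialidase, had 2 UMIs, both in 1 relapsed cell, and 247 UMIs in primary cells, a log2 ratio of -5.59 (-8.65 to -3.72). Thus the rule genes did not differ by a common factor, and Neu4 and Gpr17 differed most.

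Outside the rule, Olig2, the main lineage transcription factor, had a UMI in 53.1% of relapsed and 35.7% of primary upper-range cells thinned to 2000 UMIs, against 0 and 0.752% of thinned microglia. Thinning after the cells were chosen does not make the choice equal, and only 3 relapsed cells held 5 rule genes when thinned first.

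Of the 30 precursor genes outside the rule 17 were at least 2-fold lower in relapsed upper-range cells, beside 19.2% of all measured genes. Only 1 was higher, beside 5.88% of all measured genes, and the median log2 ratio of the list was -1.14. Serpine2, a secreted protease inhibitor, was the higher one, at 1704 CPM in relapsed and 385 CPM in primary cells (log2 ratio 2.15, 1.98 to 2.32). Bcan, a brain proteoglycan, was near even at 327 CPM in relapsed and 346 CPM in primary cells, and Olig2 stood at 410 and 209 CPM. Vcan, the large matrix proteoglycan of precursors, had 50.2 CPM in relapsed and 216 CPM in primary cells (log2 ratio -2.11), and Lims2, an adaptor of integrin signalling, had 37.1 and 350 CPM (-3.24). The summed level of the list was 6503 CPM in relapsed and 8984 CPM in primary upper-range cells, against 290 and 197 CPM in the other cells. Both libraries thus held the precursor genes far above their other cells, with the relapsed cells lower for most members.

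**Figure D3:**
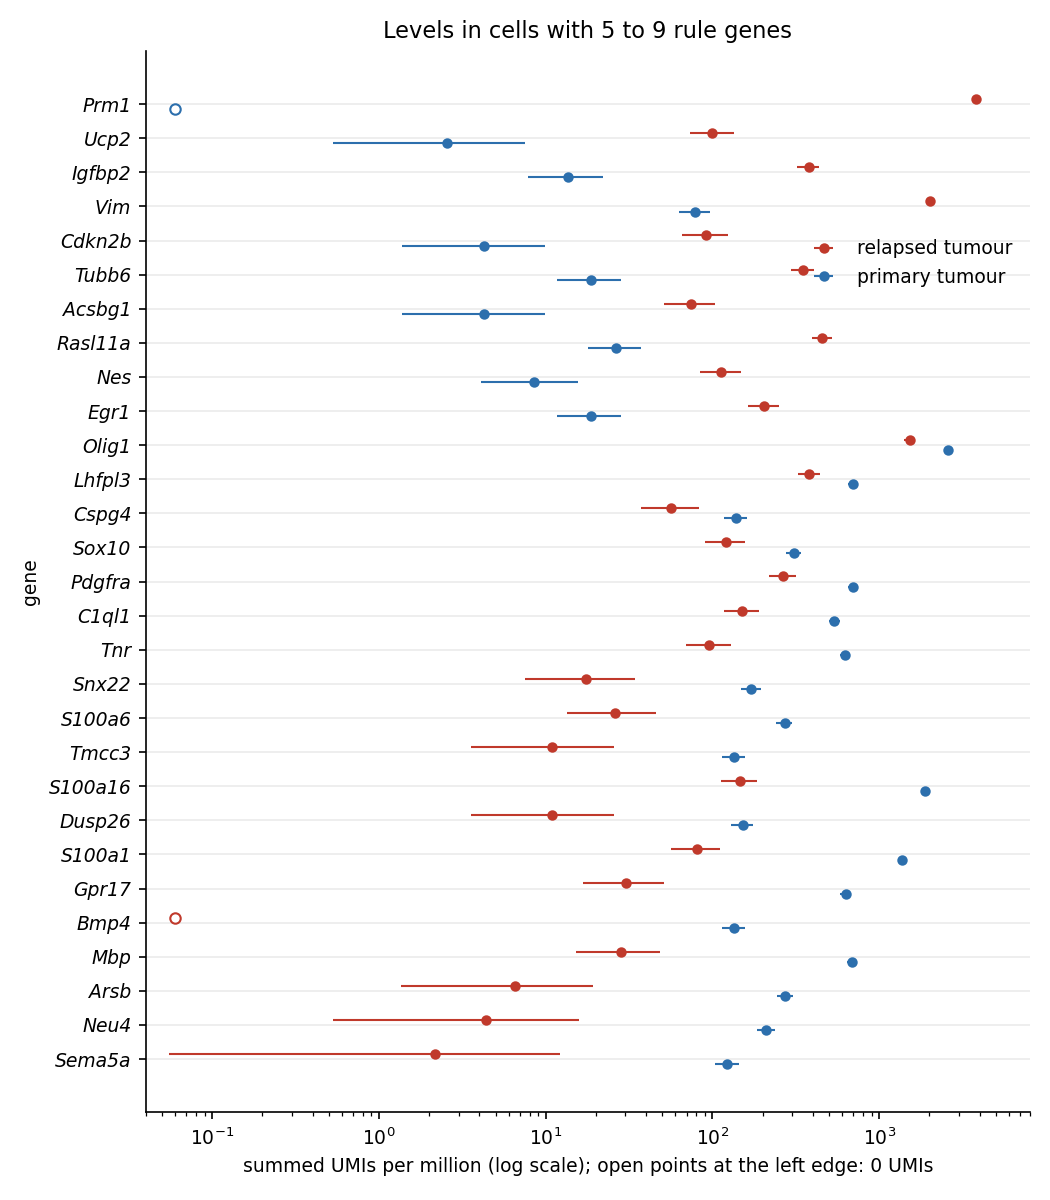
Level in upper-range cells, as summed UMIs per 1000000 (log axis), of rule genes and of named genes that differ, for the relapsed (red) and the primary library (blue); bars are exact Poisson 95% intervals for counting error, and open points at the left edge are genes with 0 UMIs. Gpr17 stands at 30.5 CPM in relapsed and 629 CPM in primary cells, and Vim at 2029 and 78.4 CPM.

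Genes of commitment and of myelin were lower in relapsed upper-range cells, some of them at 0. In the committed list 9 of 13 measured genes were at least 2-fold lower and none higher, beside 19.2% lower over all measured genes, with a median log2 ratio of -1.74. Bmp4, Enpp6 and Myrf, which marks the switch to myelination, had 0 UMIs in relapsed cells and 135, 63.1 and 37.5 CPM in primary cells. All 7 measured myelin genes were at least 2-fold lower. Mbp, the basic protein of myelin, had 13 UMIs (28.4 CPM) in relapsed and 811 UMIs (691 CPM) in primary cells, a log2 ratio of -4.61 (-5.52 to -3.82). Cnp, an enzyme of oligodendrocytes, was closer, at 133 CPM in relapsed and 536 CPM in primary cells.

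A small group of primary cells held most of this RNA. Counting cells with a UMI of Bmp4 or Enpp6, a split chosen after values were seen, gave 0 of 32 relapsed cells, which allows a share of up to 9.38%, and 23 of 244 primary cells (9.43%, 6.07 to 13.8). The 2 shares cannot be told apart at this number of relapsed cells. The 23 primary cells were deeper, with a median of 7873 UMIs against 3610 in the remaining 221. The part of depth in this split was not tested. In the 23 primary cells Mbp stood at 4237 CPM, Sirt2, a deacetylase of oligodendrocytes, at 4097 CPM and Cldn11, a tight junction protein of myelin, at 1819 CPM, against 54.3, 335 and 26.1 CPM in the remaining 221 cells. Pdgfra was low in them, at 28.0 CPM and in 13.0% of cells, against 820 CPM and 93.2% of the remaining cells. Olig1 and Sox10 were kept, at 1231 and 252 CPM, against 2823 and 317 CPM. Without the 23 cells fewer genes passed the limit: against the remaining primary cells 4 of 10 measured committed genes and 2 of 6 myelin genes were at least 2-fold lower in relapsed cells, and 1 myelin gene, Cldn11, was higher (74.2 CPM in relapsed and 26.1 CPM in primary cells). Over all genes measured in that comparison 980 of 5387 were lower and 333 higher. Mbp then stood at 28.4 CPM in relapsed and 54.3 CPM in primary cells and Cnp at 133 and 193 CPM, both within 2-fold, while Sirt2, at 105 and 335 CPM, stayed past the limit. Mbp was not spread evenly: 62 of 244 primary cells (25.4%) had a UMI, 13 had at least 10 and the highest had 114, while 10 of 32 relapsed cells (31.2%) had a UMI and the highest had 2. Other cells of the tumour held some Mbp too: thinned to 2000 UMIs it was in 9.38% of relapsed and 15.2% of primary upper-range cells, against 3.76% and 8.41% of other cells and 0 and 8.27% of microglia.

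**Figure D4:**
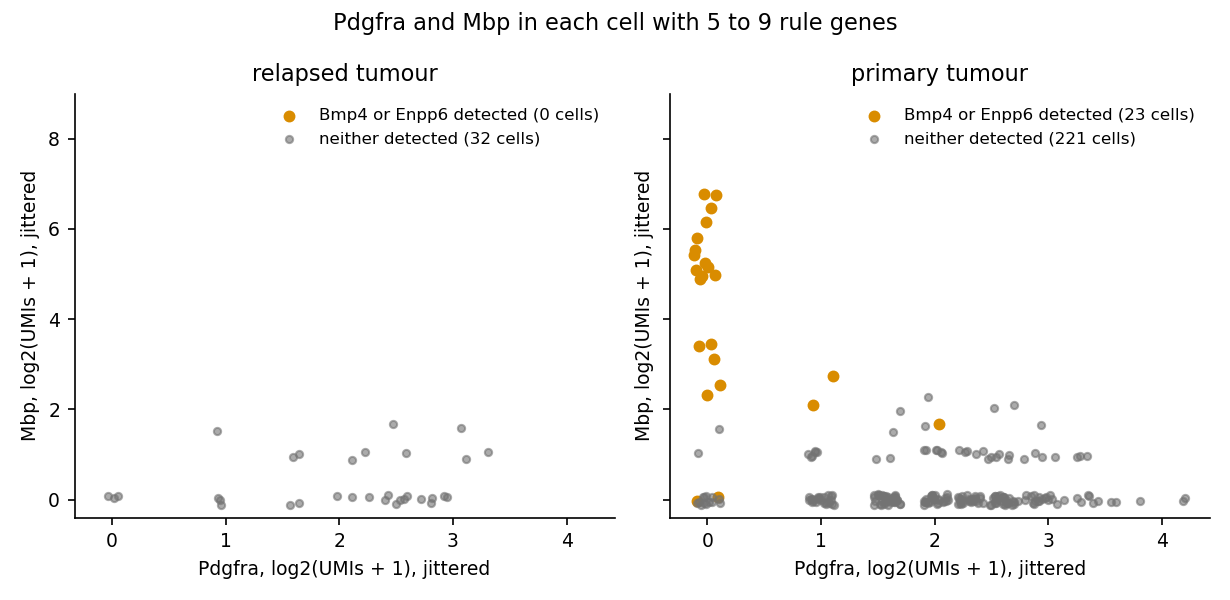
Pdgfra (horizontal) and Mbp (vertical) in each upper-range cell as log2(UMIs + 1), points spread slightly so that they can be seen, relapsed on the left and primary on the right, with cells holding a UMI of Bmp4 or Enpp6 in orange. The 23 orange primary cells lie at low Pdgfra and most of them at high Mbp, up to 114 UMIs, while the 32 relapsed cells lie along the Pdgfra axis, at no more than 2 Mbp UMIs.

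Intermediate filament and progenitor genes were on the other side. Vim (vimentin; chromosome 2, 13573927 to 13582826, plus strand) had 930 UMIs in relapsed and 92 UMIs in primary upper-range cells, which is 2029 and 78.4 CPM, a log2 ratio of 4.69 (4.38 to 5.02). It was in 93.8% of relapsed cells (median 26 UMIs) and 20.1% of primary cells (median 0), and thinned to 2000 UMIs in 84.4% and 10.7%, against 35.5% and 24.4% of thinned microglia. Nes (nestin, chromosome 3) had 113 CPM in relapsed and 8.52 CPM in primary cells and was in 75.0% and 4.10% of them. Igfbp2, which binds insulin-like growth factors, had 378 and 13.6 CPM (log2 ratio 4.79) and was in 87.5% and 6.15%. In other cells Vim was near even, at 297 CPM in relapsed and 228 CPM in primary cells.

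The other genes named for a high ratio in relapsed cells included Tubb6 (a beta tubulin; log2 ratio 4.22), Rasl11a (a small GTPase; 4.10), Cdkn2b (a cyclin-dependent kinase inhibitor; 4.43), Acsbg1 (an acyl-CoA synthetase; 4.12), Egr1 (an immediate early transcription factor; 3.44) and Ucp2 (a mitochondrial carrier; 5.30). Others rested on 1 cell each: the highest cell for the gene held 97.5% of the relapsed UMIs of Igfbp5, 98.3% of Nupr1, 100% of Lcn2 and 82.6% of Timp1. Gm12166 (log2 ratio 4.40) and Gm5900 (5.13) were also high in relapsed over primary other cells, at 3.66 and 6.87. Genes with the lowest ratio were S100a1 (80.7 CPM in relapsed and 1363 CPM in primary cells; log2 ratio -4.08) and S100a16 (146 and 1880 CPM; -3.68), both calcium-binding proteins, Arsb, a lysosomal sulfatase (3 and 320 UMIs; -5.38), and Sema5a, a guidance protein (1 and 144 UMIs; -5.81, -11.13 to -3.31). S100a1 kept a UMI in 15.6% of relapsed and 82.0% of primary thinned cells.

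Of 11 measured growth factor receptors and feedback genes 2 were at least 2-fold higher in relapsed upper-range cells and none lower, beside 5.88% higher over all measured genes. They were Spry2, an inhibitor of receptor signalling, at 207 CPM in relapsed and 66.5 CPM in primary cells, and Dusp6, a phosphatase that ERK induces, at 148 and 48.6 CPM. Among ligands, Pdgfa, which binds Pdgfra, was near even in the upper range at 67.6 and 72.4 CPM. In the other cells it was at 203 CPM in relapsed and 98.3 CPM in primary cells, so the ligand was higher outside these cells than in them.

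Hedgehog pathway genes, which mark the tumour cells, were low in the upper range. Ptch1, receptor and target of the pathway, had 32.7 CPM in relapsed and 81.8 CPM in primary upper-range cells, against 137 and 134 CPM in the other cells. Sfrp1, a secreted Wnt inhibitor expressed in this tumour, had 129 and 189 CPM, against 1036 and 690 CPM. Of 4 measured pathway genes 1 was at least 2-fold higher and 2 lower in relapsed cells (median log2 ratio -0.94), and the median was 0.92 with high doublet scores left out, where 3 were measured. Over all measured genes 5.88% were higher and 19.2% lower.

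Adhesion and neurotransmitter receptor genes were more often lower than higher in relapsed upper-range cells, and matrix genes lay close to the median of all genes. The shares over all measured genes were 19.2% lower and 5.88% higher. Of 14 measured matrix genes 5 were at least 2-fold lower and 1 higher, Sparc, a secreted matrix glycoprotein, at 233 CPM in relapsed and 42.6 CPM in primary cells. Of 17 adhesion and guidance genes 10 were lower and none higher, with Nlgn3, a synaptic adhesion protein, at 103 and 222 CPM. Of 10 neurotransmitter receptors 6 were lower and none higher: the metabotropic glutamate receptor Grm5 had 67.6 and 196 CPM, and the NMDA receptor subunit Grin3a 21.8 and 106 CPM. The AMPA receptor subunit Gria2, at 308 and 474 CPM, did not pass the limit. These 3 lists had median log2 ratios of -0.37, -1.11 and -1.37, beside -0.20 over all measured genes.

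Cell cycle genes were present in upper-range cells of both libraries. Thinned to 2000 UMIs, at least 3 of the G2/M genes had a UMI in 25.0% of relapsed (11.5 to 43.4) and 15.6% of primary upper-range cells (11.3 to 20.7), against 45.3% and 38.1% of other cells and 9.68% and 20.7% of microglia. So the primary share lay below that of the primary microglia and cannot be read as cycling from these calls alone. At least 3 of the G1/S genes had a UMI in 43.8% of relapsed (26.4 to 62.3) and 14.8% of primary cells (10.6 to 19.8), against 3.23% and 21.8% of microglia, so the primary share again lay below the microglia. Without thinning the G2/M shares were 65.6% and 29.1%. Ccnd1, the cyclin of early G1, had 1781 CPM in relapsed and 670 CPM in primary cells, and the inhibitors Cdkn1a and Cdkn2a had 277 and 190 CPM in relapsed cells, against 70.7 and 20.5 CPM in primary cells. Top2a, a mitotic topoisomerase, had 100 and 161 CPM, so the cycle genes did not all go one way. Top2a lay in few cells: 7 of 244 primary upper-range cells had 10 or more UMIs (highest 22, median 0). Among the 32 relapsed cells 1 did (highest 12, median 0).

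Genes of glucose and sterol metabolism were more often higher than lower in relapsed upper-range cells, beside 5.88% of all measured genes higher. Of 11 measured glycolysis and hypoxia genes 6 were at least 2-fold higher and none lower (median log2 ratio 1.14), with Ldha, lactate dehydrogenase, at 561 CPM in relapsed and 157 CPM in primary cells. Of 14 cholesterol synthesis genes 8 were higher and none lower (median 1.10), with Fdps, farnesyl diphosphate synthase, at 266 and 84.4 CPM. In other cells 5 of 27 glycolysis genes (median 0.49) and 4 of 19 cholesterol genes (median 0.26) were higher. Of 17 immediate early and dissociation stress genes, 10 were at least 2-fold higher in relapsed upper-range cells (median 1.07). In other cells 12 of 27 were (median 0.90). Fos stood at 275 CPM in relapsed and 53.7 CPM in primary upper-range cells. The summed level of the list differed in the upper range, at 5228 CPM in relapsed and 2375 CPM in primary cells. It was near even in other cells, at 4641 and 4350 CPM. The part of handling in these lists was not tested.

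The sorted astrocytes took no part in the rule, so precursor genes could be tested there between strata. These libraries held 6718165 to 11798735 assigned reads each. Precursor genes were abundant in the astrocyte libraries of stroma A: ranked by read count, Pdgfra was gene 1, 2 and 4 in the 3 stroma A libraries, against 75, 263 and 3 in stroma B, and Cspg4 was 12, 35 and 22, against 1744, 657 and 52. The astrocyte genes were lower in rank in stroma A, with Aqp4, the water channel of astrocytes, at 3017, 8499 and 693, against 45, 101 and 454 in stroma B. In these bulk libraries fewer precursors and less RNA per precursor cannot be told apart. Nothing in the labels says that the 3 libraries of a stroma came from separate animals, so p-values measure only the spread between these samples.

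Precursor genes were lower in stroma B by the fitted values, but none passed the test. Sox10 had 114, 172 and 781 CPM in stroma B and 1960, 1151 and 977 CPM in stroma A, a log2 ratio of -1.94 (SE 0.74, adjusted p = 0.194 by edgeR's quasi-likelihood test with Benjamini-Hochberg adjustment). The groups did not overlap, and the third stroma B library lay near stroma A. Neu4 had 33.8, 6.83 and 107 CPM in stroma B and 400, 340 and 279 CPM in stroma A (log2 ratio -2.79, SE 0.85, adjusted p = 0.140 by edgeR). Pdgfra had a log2 ratio of -1.70 (SE 0.76, adjusted p = 0.246 by edgeR).

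By edgeR's quasi-likelihood test 55 of 14176 genes (0.388%) were higher and 39 (0.275%) lower in stroma B at an adjusted p under 0.05. None of the 9 rule genes was called, and 3 had an unadjusted p under 0.05. DESeq2 passed 3 and limma 1, all lower. Over all 14176 genes 1501 were lower at an unadjusted p under 0.05 by edgeR, and DESeq2 called 787 of the 14176 lower. Limma called 99 of 13160 genes lower. All 9 rule genes were fitted lower (median log2 ratio -1.61, beside -0.03 over all genes). In 4 of 9 (44.4%) stroma B lay below stroma A with no overlap, as in 13.1% of all genes. The third stroma B library decided this: its median log2(CPM + 0.5) over the rule genes was 10.08, against 6.97 and 7.48 in the other two and 10.94, 10.01 and 10.14 in stroma A. Without it 8 of the 9 were called lower by edgeR, as were 704 of all 15433 genes tested, among 1342 called in all.

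Precursor genes outside the rule followed the same order. All 30 were fitted lower in stroma B (median -1.10), with 0 called by edgeR and 0 by limma. By edgeR 8 had an unadjusted p under 0.05, DESeq2 called 5, and without the third stroma B library edgeR called 21. Beside these and the lists below, 1501 of 14176 genes were lower at an unadjusted p by edgeR and 787 by DESeq2. Without the third stroma B library edgeR called 704 of 15433 lower. Of the 20 genes named in upper-range cells, 19 could be tested, all fitted lower with 0 called by edgeR, 7 at an unadjusted p under 0.05, 6 called by DESeq2 and 0 by limma. Myelin genes differed more, and here the third stroma B library lay with the others: all 17 were fitted lower (median -3.27), and in 15 (88.2%) stroma B lay below stroma A with no overlap. Mbp had 79.5, 42.7 and 122 CPM in stroma B and 179, 271 and 296 CPM in stroma A (log2 ratio -1.61, adjusted p = 0.109 by edgeR). No myelin gene was called by edgeR, 15 had an unadjusted p under 0.05, DESeq2 called 14 and limma 5, all lower.

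**Figure D5:**
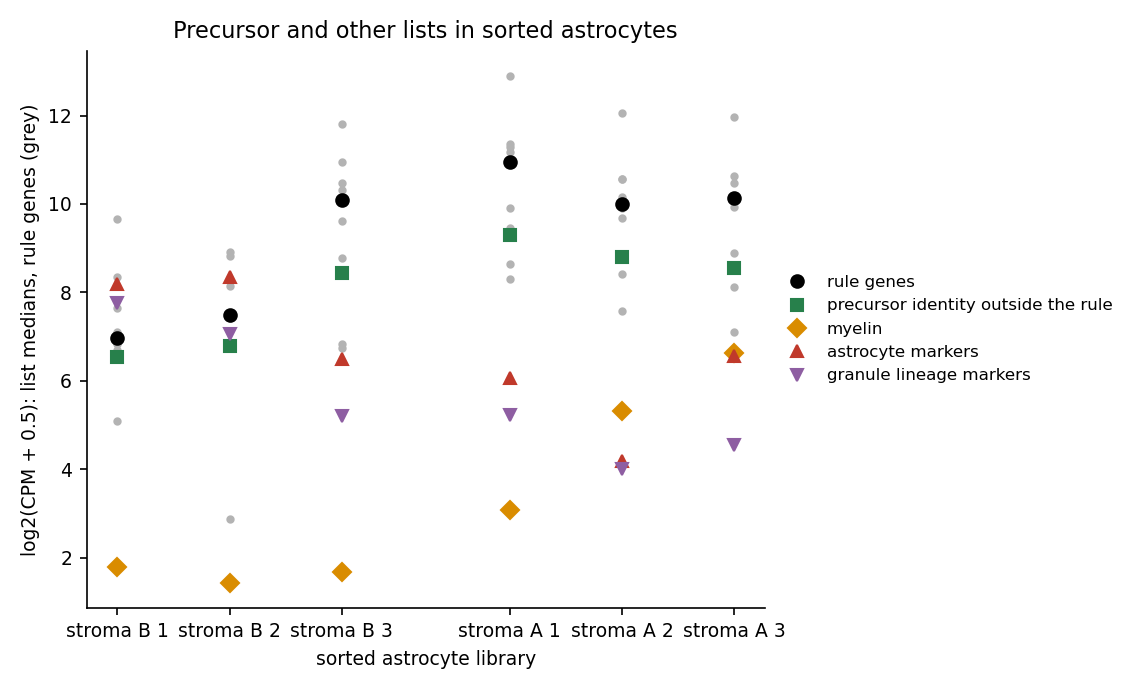
Level in the sorted astrocyte libraries as log2(CPM + 0.5), stroma B left of stroma A: coloured symbols are medians over a gene list in 1 library, and grey points are the 9 rule genes. For the rule genes the third stroma B library lies with stroma A, at a median of 10.08, while the other two lie at 6.97 and 7.48, and for the myelin genes all 3 stroma B libraries lie below stroma A.

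Markers of other cells moved with the strata as well. All 10 astrocyte markers (median 2.30) and all 12 granule lineage markers (median 2.50) were fitted higher in stroma B, and all 10 microglia markers lower (median -3.96) with the groups overlapping; edgeR called none of these 32 genes, while 7, 11 and 8 had an unadjusted p under 0.05, DESeq2 called 7, 11 and 3, and limma 3, 2 and 0. Their part in the precursor values was not tested. Over all 14176 genes 1594 were higher and 1501 lower at an unadjusted p under 0.05 by edgeR. DESeq2 called 784 of the 14176 higher and 787 lower, and limma 186 of 13160 higher and 99 lower. Of the 26 genes of the G2/M list edgeR called 14 higher in stroma B, beside 55 of all 14176 genes, and DESeq2 called 25. All 26 were fitted higher (median log2 ratio 1.59). In 25 of them stroma B lay above stroma A with no overlap, as in 2007 of all 14176 genes. Among genes named in the chosen cells the mitotic genes Cdca2 (log2 ratio 1.79, adjusted p = 0.0406), Prc1 (1.26, 0.0453) and Cenpf (1.50, 0.0498) were called higher in stroma B by edgeR's quasi-likelihood test. Leaving out any library but the third of stroma B left 0 of the 94 calls, these 3 included, with 2067 to 3781 genes at an unadjusted p under 0.05.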

How the data were processed

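The 2 single-cell matrices hold UMI counts per gene and barcode, deposited by the authors as Cell Ranger output aligned to mm10, per the submitters' processing notes, which also name STAR and Seurat. The bulk table holds read counts and FPKM values per gene, deposited by the authors per the file headers; no source used here gives versions of these tools. Tumours were dissociated with papain, and astrocytes were sorted by flow, per the labels' protocols. The members and gene lists were chosen with earlier results of these data known.

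Cells with at least 500 genes and at most 10% mitochondrial UMIs were kept. UMIs were summed over the cells of a group in a library and divided by the group's total (CPM); ratios carry exact conditional binomial 95% intervals and shares Clopper-Pearson 95% intervals. Between libraries a gene was measured at 30 or more UMIs in either group; against other cells it was measured when the chosen cells had 30 or more UMIs or would have had them at the other cells' level, so low genes enter only when high in the chosen cells. A gene was higher or lower past a 2-fold limit, with more than 3 UMIs. The floor for a count of 0 is 3 counts. Microglia for the free RNA check had at least 3 of 6 microglia genes. Thinning drew 1000 or 2000 UMIs per cell, leaving out shallower cells. Summed levels depend on UMI depth, which differed between libraries.

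Bulk counts were tested with edgeR 4.0.16 (TMM, filterByExpr, quasi-likelihood F-test, Benjamini-Hochberg over 14176 genes), with DESeq2 1.42.0, limma 3.58.1 on log2(FPKM + 1), no filter, library size scaling and each library left out as alternatives. These steps were tested on simulated data. Other tools were Python 3.11.15, numpy 2.4.6, scipy 1.17.1, scanpy 1.11.5 and R 4.3.3. Named genes were the rule genes, the 20 genes outside them with the largest smaller-of-2-libraries ratio over other cells among genes in at least 20% of members of each library, the 12 highest and 12 lowest relapsed over primary ratios (at least 30 UMIs in 1 library and 4 in the other, interval excluding equality), up to 6 in each direction with 3 or fewer UMIs in 1 library, and members of the lists; the rule was repeated in cells with 5 to 9 genes. Sex-chromosome genes were looked at after values were seen.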

Additional observations from a re-analysis of the deposited data

Results flagged for a closer look

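For 9 named genes the relapsed over primary ratio had opposite signs in upper-range cells (5 to 9 of the 9 rule genes) and in all other cells, with neither counting interval reaching 0. The difference was not tested, since each tumour has 1 library. Pdgfra, Lhfpl3 and C1ql1 are rule genes, and the deeper relapsed cells reach the upper range at lower levels of them, so their ratios there are a description. Pdgfra had a log2 ratio of -1.41 (-1.69 to -1.13) in upper-range cells, against 1.57 (1.49 to 1.64) in other cells. Lhfpl3 had -0.88 against 0.43, C1ql1 -1.84 against 0.49, and Scrg1, a small secreted protein gene of glia, -1.23 against 0.55. The tumour's other cells thus held more Pdgfra, Lhfpl3 and C1ql1 RNA in the relapsed library, and these are the 3 rule genes most common in other cells beside Olig1. Dusp26, a phosphatase, had -3.80 against 0.52, S100a6, a calcium-binding protein, -3.37 against 0.62, and the unnamed gene 4430402I18Rik -3.75 against 0.35. Rasl11a had 4.10 against -0.26. Nupr1, a stress-induced nuclear protein, had 5.21 against -1.40, and 1 cell held 98.3% of its relapsed upper-range UMIs.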

How the results depend on the processing

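Shares of chosen cells in the relapsed and primary library were 15.6% and 6.83%. They were 1.99% and 3.05% with at least 4 of the 9 genes, 0.408% and 2.68% with at least 5, 15.2% and 4.15% with 3 or 4, 14.7% and 6.12% with at most 1 astrocyte gene, 14.3% and 6.21% without high doublet scores, 0.676% and 2.43% without cells holding 4 granule markers, 0.268% and 2.16% thinned to 1000 UMIs, 1.38% and 2.97% thinned to 2000, and 0.0383% and 2.01% thinned to 2000 with at least 5 genes. Relapsed over primary, 591 genes were higher and 1379 lower in all chosen cells. The higher count was 307 without cells with 4 granule markers, 352 with at least 5 genes, 333 thinned to 1000 UMIs, 118 when divided by the ratio in other cells, and, with at least 5 genes, 100 thinned, 386 without high doublet scores, 333 without cells with 4 granule markers and 333 without cells holding Bmp4 or Enpp6. The lower count was 573 with 3 or 4 genes, 420 thinned, 910 at 60 UMIs, 897 divided by the ratio in other cells and 287 with at least 5 genes thinned. Against other relapsed cells 59 genes were higher and 316 lower, and the higher count was 439 with at least 5 genes and 14 with 3 or 4; leaving microglia and cells with 4 astrocyte genes out of the other cells gave 128 higher and 154 lower. Against other primary cells 655 were higher and 129 lower, with 1305 and 520 at 5 genes or more, 17 higher with 3 or 4, and 28 lower without those cells. Divided by the ratio in other cells, 6 of 24 named genes turned: Gm5900 (-0.99), Pdlim3 (-1.03), Gm12166 (-0.28), Ssu2 (-0.28), Pdgfrl (-0.25) and Ren1 (1.11). The cause was not tested.

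In the sorted astrocytes edgeR called 94 genes, DESeq2 1728, limma 285, edgeR without a filter 227 and with library size scaling 63; leaving out 1 library gave 0 to 1342. The fitted direction turned for 7 of 54 named genes: Zbed3 without a filter (0.05) and with limma (0.18), and, over fits without 1 library each, Zbed3 (-0.21 to 0.17), C1ql1 (-0.62 to 0.08), Aldoc (-0.11 to 0.72), Ntsr2 (-0.14 to 0.91), Ddah1 (-0.85 to 0.30), Prkcdbp (-0.02 to 0.30) and Lypd1 (-2.08 to 0.06). No paired analysis was possible because the sample titles of the strata share only 1 number (AS5-1 in stroma A and AS5-2 in stroma B). The bulk column AS4-1 was matched to the stroma A title AS4 by assumption. The 32 relapsed upper-range cells limit every relapsed value: a count of 0 there allows a share of up to 9.38%.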

Other observations

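Several gene groups of upper-range cells belong to no comparison above. Their counts stand beside 5.88% of all measured genes higher and 19.2% lower in relapsed upper-range cells. Id genes, which hold back differentiation, were above even in relapsed cells: Id3 had 142 CPM in relapsed and 24.7 CPM in primary cells and Id2 476 and 253 CPM, though 1 of 7 measured genes of the BMP and Id list was at least 2-fold higher. The Notch targets went apart, with Hes1 at 74.2 CPM in relapsed and 13.6 CPM in primary cells and Hes5 at 21.8 and 78.4 CPM; 1 of 7 measured genes was higher and 3 lower. Of 12 ion channels and transporters 2 were higher in relapsed cells, the partners Slc3a2 (172 and 76.7 CPM) and Slc7a5 (116 and 46.0 CPM) of an amino acid exchanger, and 5 were lower, among them the potassium channel Kcnj10 (34.9 and 92.9 CPM). Of 9 measured p53 response genes (15 in the list) 4 were higher and none lower, beside 5.88% of all measured genes higher, with Plk2, a kinase that p53 induces, at 199 and 25.6 CPM and Phlda3, an Akt inhibitor, at 264 and 86.1 CPM.

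Of 26 oxidative phosphorylation genes 3 were at least 2-fold higher in relapsed upper-range cells (median log2 ratio 0.35). Of 81 cytosolic ribosomal protein genes 1 was (median 0.34), beside 5.88% of all measured genes. Of 12 mitochondrially encoded genes 3 were lower, near the 19.2% of all measured genes. The list summed to 32081 CPM in relapsed and 53631 CPM in primary cells. Of 2 measured interferon and antigen presentation genes 1 was higher, H2-D1, a class I molecule, at 203 and 65.6 CPM. The complement gene C4b had 30.5 CPM in relapsed and 174 CPM in primary cells. Of 6 Wnt pathway genes 1 was lower, near the 19.2% of all measured genes, and none higher.

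In the sorted astrocytes Prm1 had 0, 225 and 486 CPM in stroma B and 265, 0.138 and 0.112 CPM in stroma A. Eif2s3y, a Y-linked gene, had 46.6, 0 and 61.4 CPM in stroma B and 0, 63.3 and 50.9 CPM in stroma A. Libraries of both strata thus differed among themselves in both genes.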
